A study of Mus musculus with 22 samples.

Results

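The comparison described here sets a Creb3l1 knockout line against its control line, in mouse tumour cells sorted into EPCAM+ and EPCAM- fractions on day 8. It uses the 4 Creb3l1 knockout libraries and the 4 control libraries of that day, 8 of the 22 libraries of the series, with the fraction as a covariate. Per the labels, all lines were cultured from 1 kind of primary tumour, which carried Lgr5CreER (a Cre recombinase that tamoxifen can switch on, driven by the stem cell gene Lgr5), floxed p53 on both copies (p53fl/fl) and a Rosa26-YFP reporter on both copies (Rosa26-YFP+/+). The control cells carried the same alleles. Living mCherry+ YFP+ cells were sorted after staining for EPCAM, a surface adhesion protein of epithelial cells, and each line and fraction has 2 libraries, numbered 1 and 2 and tagged as batches. The labels do not say whether these came from separate cultures, nor whether the knockout line is 1 clone or a pool. The p-values below therefore measure the spread between these libraries, which may be technical.

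Creb3l1 encodes a transcription factor of the Creb3 and ATF6 family. These proteins are held in the membrane of the endoplasmic reticulum by a transmembrane segment and, on a signal, move to the Golgi, where the site-1 and site-2 proteases (encoded by Mbtps1 and Mbtps2) cut them and free the DNA-binding part to enter the nucleus. Known targets include genes of secretory transport and of collagen production, best studied in bone-forming cells. EPCAM+ and EPCAM- tumour cells stand for more epithelial and more mesenchymal states along the epithelial-to-mesenchymal transition, the subject of the series.

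The deposited values are read counts scaled to 1 common total (20009465 to 20014236 units in these 8 libraries), called scaled counts here. They correspond to between 7018416 and 9882698 reads in genes, and 1 read is worth 2.02 to 2.85 units. Libraries detected 21109 to 22616 genes, with 2.00 to 2.67% of values in mitochondrially encoded genes. Epcam itself stood at 5622 to 7320 in the 4 EPCAM+ libraries and at 180 to 735 in the 4 EPCAM- libraries, so the fractions differed as sorted in both lines. Lines were compared with limma across all genes. A log2 fold change is the difference between knockout and control in mean log2(scaled count + 1) with the fraction in the model, and a gene is called where its adjusted p is below 0.05. Epcam was not called between the lines (log2 fold change 0.56, adjusted p 0.499).

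The mRNA of the targeted gene does not check the knockout. Creb3l1 stood at 0 and 0 in the control EPCAM+ libraries and at 137 and 26 in the control EPCAM- libraries. In the knockout it stood at 3 and 0 in EPCAM+ and at 6 and 0 in EPCAM- cells. Only the 2 control EPCAM- libraries were above 6, and the groups overlapped at 0 (log2 fold change -1.76, standard error 1.27, adjusted p 0.576). The 12 libraries of the Pitx1, Klf5 and Nfatc1 knockouts held 0 to 8, so a low value was no mark of the Creb3l1 line. The 5 tested genes on each side of Creb3l1 on chromosome 2 were not called either. Their log2 fold changes ran from -1.97 for Large2 (mean scaled count 76.3 in control and 21.8 in the knockout, adjusted p 0.175) to 1.56 for the lowly counted Gm13785, with Dgkz, the nearest on one side, at 0.01.

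Over both fractions 144 of 18222 genes tested were called at an adjusted p below 0.05, which is 0.79%. Of these, 41 rose (0.225%) and 103 fell (0.565%). An unadjusted p below 0.05 was found for 2349 genes. The falls were also larger. Their median log2 fold change was -2.35, or -2.08 with the 11 genes at 0 in all 4 knockout libraries put at their bound of 3 reads per library, against 1.07 for the rises. At least a 2-fold change was reached by 90 falls and by 22 rises. Each called gene had the same sign in both fractions. The fit over both fractions favours such genes and the share over all genes tested was not counted, so nothing is read from this. In 125 of the 144 all 4 libraries of one line lay beyond all 4 of the other, as they did in 1150 of all genes tested. Protein-coding genes made up 132 of the calls.

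**Figure D1:**
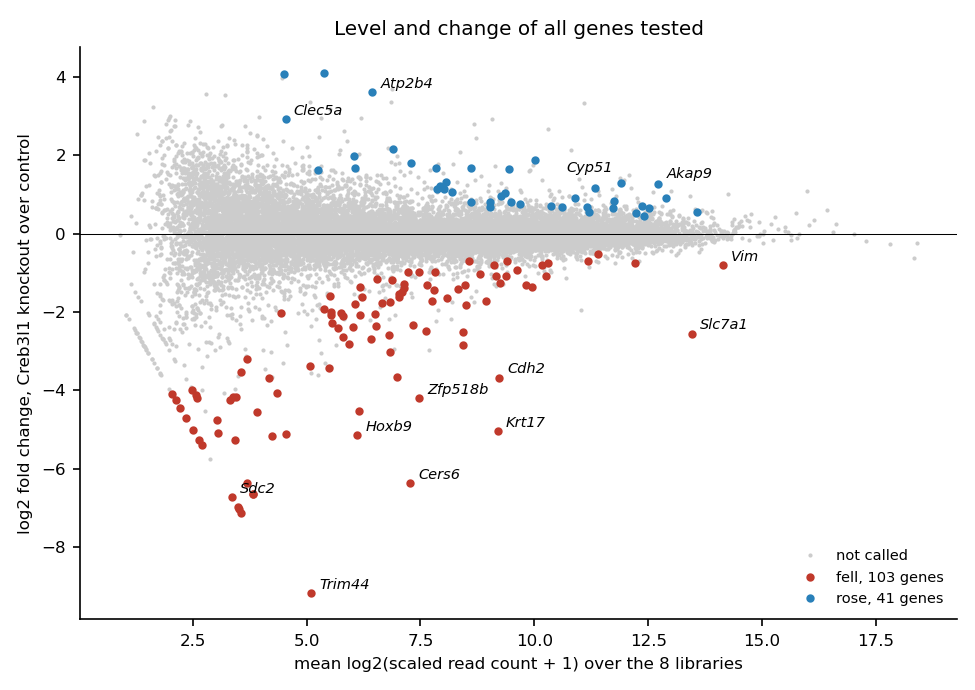
Each point is 1 of the 18222 genes tested: its mean log2(scaled count + 1) over the 8 libraries (x axis) against its log2 fold change in the Creb3l1 knockout over control (y axis), with the 103 called falls in red, the 41 called rises in blue and other genes in grey. The falls reach further from 0 than the rises, down to Trim44 at -9.18, and include the abundant genes Slc7a1 and Vim.

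The count changed with how the fractions were treated. The 2 libraries of a line and number (1 EPCAM+, 1 EPCAM-) resembled each other, and whether this caused the change was not tested. With line and number as a random block (estimated correlation 0.441) 46 genes were called, 8 rises and 38 falls, all among the 144. With the 2 fractions averaged into 1 value per line and number, 2 values against 2, 16 were called, 1 rise and 15 falls. With the number as a block common to both lines the count was 217, with 71 rises and 146 falls. Leaving out any 1 of the 8 libraries gave between 64 and 96 calls, the fewest without the knockout EPCAM- replicate 1, and 50 genes were called in each of these 8 fits. Of the 12 largest named falls 11 passed in the random block and 11 in every fit with a library left out, against 3 and 2 of the 12 largest named rises.

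Trim44 and Sdc2 were the marker genes given for this comparison. Trim44, a member of the tripartite motif family with a role in deubiquitination (chromosome 2, 102300119 to 102407828, minus strand), stood at 726 and 842 in the control EPCAM+ libraries and at 736 and 991 in the control EPCAM- libraries. The knockout held 3 and 0 in EPCAM+ and 0 and 0 in EPCAM- cells, which is 1 read in all 4 libraries together. The groups lay far apart in both fractions, and no ratio is given from a single read (log2 fold change on the scale of value + 1 -9.18, standard error 0.45, adjusted p 1.9e-05). The Pitx1, Klf5 and Nfatc1 knockouts held 110 to 1047, all above the Creb3l1 line. The 10 tested genes next to Trim44 were not called, among them Cd44, which stood at 15448 to 26782 in control and at 18552 to 28086 in the knockout. Of 29 TRIM family genes tested, Trim44 was the only one called, where 0.79% of all genes tested were called. This list and the gene lists below were chosen with earlier results of these data known, so nothing is read from such shares.

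Sdc2 encodes syndecan-2, a transmembrane heparan sulfate proteoglycan (chromosome 15, 32920723 to 33034935, plus strand). Control libraries stood at 47 and 71 in EPCAM+ and at 183 and 195 in EPCAM- cells, and all 4 knockout libraries at 0. With 3 reads per library in place of 0, Sdc2 was at least 17.4-fold lower in the knockout (adjusted p 0.000272). The fitted log2 changes of genes at 0 depend on the value added before the logarithm and are not bounds. The other 3 knockouts held 7 to 93, all above 0. In bulk libraries, fewer cells that express a gene and less RNA per cell cannot be told apart, here and in all results that follow.

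Another pair of genes on chromosome 2, Cers6 and Stk39, also fell to a small part of the control level. Cers6 encodes a ceramide synthase (68861441 to 69114282, plus strand). It stood at 974 and 1097 in control EPCAM+ and at 2192 and 1683 in control EPCAM- cells. The knockout held 8 and 5 in EPCAM+ and 75 and 20 in EPCAM- cells. The mean was 55.1-fold lower (log2 fold change -6.36, standard error 0.44, adjusted p 0.000272). The groups did not overlap, which the choice of the largest falls required. Stk39, which encodes a kinase that acts on ion cotransporters and lies on the same stretch of the chromosome (68210445 to 68472268, minus strand), was named after its values were seen. It stood at 143 to 536 in control and at 8 to 19 in the knockout (log2 fold change -4.53, adjusted p 0.000272). The predicted genes Gm37747 and Gm38377, which lie within Cers6 on the same strand, also fell, and their reads cannot be told apart from unspliced Cers6 reads. In the other 3 knockouts Cers6 stood at 443 to 4134 and Stk39 at 45 to 525, all above the Creb3l1 line.

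The promoter windows of these 3 chromosome 2 genes are shown because their transcripts were nearly lost. Sequences are from RefSeq on GRCm38.p6, from 250 bases before to 50 after the RefSeq start (for Trim44 and Stk39 this start lies inside the GENCODE gene), and run 5′ to 3′ on the gene's strand. Capitals mark the letters CCACG or their reverse complement CGTGG, the tail of the endoplasmic reticulum stress element to which factors of this family are known to bind.
Trim44, chr2:102400851-102401150, minus strand: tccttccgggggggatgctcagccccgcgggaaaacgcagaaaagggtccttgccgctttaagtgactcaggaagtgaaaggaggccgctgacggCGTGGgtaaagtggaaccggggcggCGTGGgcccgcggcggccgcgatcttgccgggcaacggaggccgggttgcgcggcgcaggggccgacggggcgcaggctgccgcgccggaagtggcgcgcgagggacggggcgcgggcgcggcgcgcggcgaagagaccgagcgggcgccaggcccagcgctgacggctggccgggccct
Cers6, chr2:68861191-68861490, plus strand: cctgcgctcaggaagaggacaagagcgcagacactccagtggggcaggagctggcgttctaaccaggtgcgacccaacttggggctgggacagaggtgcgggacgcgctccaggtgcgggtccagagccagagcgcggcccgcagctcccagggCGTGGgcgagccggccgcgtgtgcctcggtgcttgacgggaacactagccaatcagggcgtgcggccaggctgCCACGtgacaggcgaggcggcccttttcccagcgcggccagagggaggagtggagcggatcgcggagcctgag
Stk39, chr2:68471932-68472231, minus strand: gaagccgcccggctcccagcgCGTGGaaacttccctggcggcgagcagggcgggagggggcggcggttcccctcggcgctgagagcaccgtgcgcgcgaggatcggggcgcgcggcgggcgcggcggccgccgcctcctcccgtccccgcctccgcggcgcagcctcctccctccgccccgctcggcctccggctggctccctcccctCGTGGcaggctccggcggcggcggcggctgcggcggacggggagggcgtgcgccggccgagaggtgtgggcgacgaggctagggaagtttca
The core of the cyclic AMP response element, TGACGT, was searched on both strands too, and these 3 windows do not hold it.

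Windows were found for 101 of the 144 called genes, 74 falls and 27 rises. The CCACG motif was in the window of 43.2% of the falls and 51.9% of the rises, against 51.2% of the 10466 tested genes with a window and 35.7% of all 26742 genes in the table. TGACGT was in the windows of 8.1% of the falls and 11.1% of the rises, against 13.1% of those tested genes and 8.4% of all genes. A gene was counted where any of its windows held the motif, and the motifs can overlap by the letters CGT. A match is a description of letters and not a binding site. The shares in called genes stood near or below those of tested genes.

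Other large falls, by the rule for named genes, were those of Cdh11, Lrig3, Ptprz1, Cldn3 and Gpc4. Cdh11, a mesenchymal cadherin, stood at 47 and 41 in control EPCAM+ and at 357 and 340 in control EPCAM- cells. It was at 0 in all 4 knockout libraries, at least 27.5-fold lower (adjusted p 0.000609). Lrig3, a membrane protein with leucine-rich repeats, stood at 29 to 381 in control and at 0 in all 4 knockout libraries, at least 27.4-fold lower (adjusted p 0.000918). Ptprz1, a receptor tyrosine phosphatase, stood at 47, 125, 169 and 159 in control and at 3, 5, 3 and 0 in the knockout, 45.5-fold lower (adjusted p 0.00421). Cldn3, a tight junction claudin, fell from 58 to 331 in control to 1 read in all 4 knockout libraries (adjusted p 0.00224), but was not called with voom (0.128). Gpc4, a glypican that carries heparan sulfate, fell from 16 to 539 to a single read as well (adjusted p 0.0218). Gpc4 was not called in the random block (0.0843), with voom (0.238) or in 5 of the 8 fits with a library left out.

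The control libraries themselves spread widely for several of these genes. For Lrig3, Gpc4, Lrch2 and Cldn3 both control replicate 1 libraries were lower than both replicate 2 libraries. For Cldn3 these were 58 and 69 against 331 and 292, and control EPCAM+ replicate 1 was the lowest for all 4 genes (29, 16, 14 and 58). Lrch2 was at 0 in all 4 knockout libraries, at least 31.1-fold lower (adjusted p 0.00514). Epdr1, a secreted ependymin-related protein, stood at 74 to 183 in control and at 0, 0, 0 and 3 in the knockout (adjusted p 0.000272). Cxxc4, an inhibitor of Wnt signalling, stood at 24 to 136 in control and at 0, 0, 0 and 8 (adjusted p 0.00514).

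Several of these genes were low in other knockout lines too. Pitx1 knockout libraries held 0 to 3 of Lrig3, Lrch2, Cldn3, Gpc4 and Cxxc4, 0 to 5 of Cdh11 and 0 to 11 of Epdr1. Cdh11 stood at 0 to 47 over the 12 libraries of the other 3 knockouts, and the Creb3l1 line was not called against them (log2 fold change -2.04, adjusted p 0.246). Neither were Cldn3 (adjusted p 0.053), Gpc4 (0.141), Cxxc4 (0.256) and Ptprz1 (0.372), which leaves 7 of the 12 largest named falls called against them. Over all 103 falls, 31 had all 12 of these libraries above the 4 of the Creb3l1 line. A further 37 had 2 of the 3 lines entirely above it, 20 had 1 line and 15 had none. The same counts were not made over all genes tested, so nothing is read from their size.

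**Figure D2:**
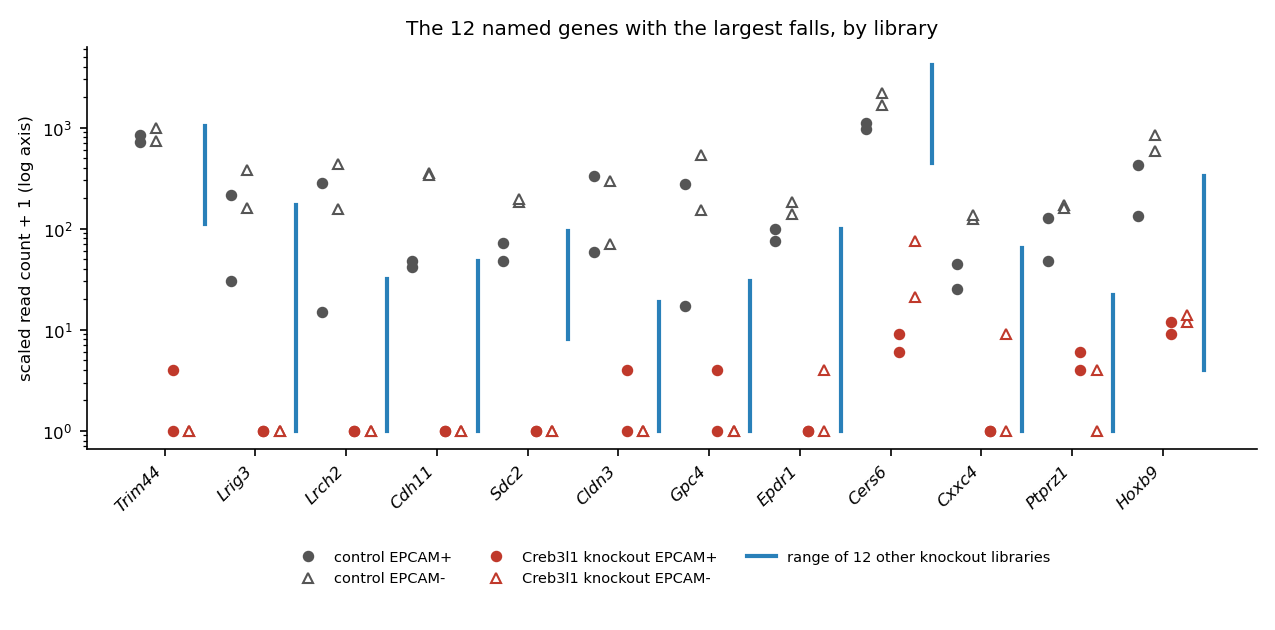
Scaled counts plus 1 (y axis, log scale) of the 12 largest named falls in each library of the control line (grey) and the Creb3l1 knockout (red), with EPCAM+ as circles and EPCAM- as triangles; blue bars span the 12 libraries of the other 3 knockouts, and a value of 1 on the axis is a count of 0. Trim44, Sdc2 and Cers6 are the genes here whose blue bar lies wholly above the red points.

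Developmental transcription factors were among the falls. Of 17 tested genes in a list of GATA, T-box and other patterning factors, 3 fell and 14 were not called, where 0.565% of all genes tested fell. The list's median log2 fold change was -0.33 against -0.02 over all genes tested. Because the lists were chosen with earlier results of these data known, nothing is read from these differences, here and for the lists that follow. Gata4 stood at 63, 55, 32 and 26 in control and at 0 in all 4 knockout libraries, at least 6.16-fold lower (adjusted p 0.00209). Gata6, its close relative, stood at 87 and 111 in control EPCAM+ and at 217 and 216 in control EPCAM- cells, against 10, 15, 13 and 13 in the knockout, 12.4-fold lower (adjusted p 0.000609). Tbx3 stood at 14 to 129 in control and at 0, 0, 6 and 3 in the knockout (adjusted p 0.00318). The 2 GATA genes separated by line, since Gata4 was at 0 in all 4 Pitx1 knockout libraries while Gata6 was at 150 to 328 there and at 43 to 213 in the Klf5 and Nfatc1 knockouts.

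Hox genes, which set position along the body axis, gave 4 falls among 24 tested members (0.565% of all genes tested fell), and 20 were not called. Hoxb9, Hoxb8 and Hoxb6 lie in the same cluster on chromosome 11. Hoxb9 stood at 131 and 423 in control EPCAM+ and at 590 and 840 in control EPCAM- cells, against 8, 11, 11 and 13 in the knockout, 46.1-fold lower (log2 fold change -5.14, standard error 0.40, adjusted p 0.000272). Hoxb8 stood at 19 to 75 against 0 to 10 (adjusted p 0.00748) and Hoxb6 at 45 to 122 against 10 to 42 (adjusted p 0.035). Hoxa10 fell from 42 to 266 to 13 to 67 (adjusted p 0.0462). Of these 4, Hoxb9 was the one called in the random block. In the Klf5 knockout Hoxb9 stood at 3 to 18, overlapping the Creb3l1 line, and in the Pitx1 knockout at 80 to 330.

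Mesenchymal cytoskeleton and adhesion genes gave 3 falls among 20 tested (Cdh11, Cdh2 and Vim), against 0.565% of all genes tested, and the list's median of 0.10 had the opposite sign. Cdh2, the mesenchymal N-cadherin, stood at 1000 and 2109 in control EPCAM+ and at 2406 and 4160 in control EPCAM- cells. The knockout held 197 and 79, and 316 and 158. It was 12.9-fold lower (log2 fold change -3.67, standard error 0.38, adjusted p 0.00421), with all 4 libraries of each line apart, and the other 3 knockouts held 804 to 4150. Vim, the intermediate filament of mesenchymal cells, stood at 9875 and 9745 in control EPCAM+ and at 67534 and 49071 in control EPCAM- cells. It stood at 6060 and 5163, and at 30486 and 36078, in the knockout, 1.75-fold lower (adjusted p 0.0128, 0.0575 in the random block). Within each fraction the knockout libraries were the lower ones, and across fractions the lines overlapped.

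The medians of the epithelial lists differed in sign. They were -0.46 for basal keratinocyte genes, -0.62 for squamous differentiation genes and -0.26 for epithelial regulators. Those of junction genes and simple epithelial keratins were 0.05 and 0.17, against -0.02 over all genes tested. Krt17, a keratin of basal and activated keratinocytes, stood at 4365, 3481, 2175 and 3846 in control and at 210, 85, 113 and 52 in the knockout, 30.1-fold lower (log2 fold change -5.04, standard error 0.34, adjusted p 0.000314). It was the 1 called gene of 19 basal keratinocyte genes, where 0.79% of all genes tested were called. Pitx1 knockout libraries held 8 to 72 of it and the Klf5 and Nfatc1 knockouts 2896 to 7976. The simple epithelial keratins Krt8 and Krt18 were not called, with Krt8 at 7622 to 19245 in control and at 12202 to 18558 in the knockout.

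Of 32 epithelial junction genes 2 fell (Cldn3 and Mal2), 1 rose and 29 were not called. Of all genes tested 0.565% fell and 0.225% rose. Mal2, a protein of apical transport, stood at 956 and 306 in control EPCAM+ and at 158 and 136 in knockout EPCAM+ cells (adjusted p 0.035), a call lost in the random block (adjusted p 0.145). Rbm47, an RNA-binding splicing regulator of epithelial cells, fell 2.05-fold (adjusted p 0.0437, 0.185 in the random block) as the 1 called of 14 epithelial regulators. The spread between control libraries was wide for squamous genes. Cnfn, a cornified envelope gene, stood at 917 and 493 in the control replicate 1 libraries and at 47 and 7 in the replicate 2 libraries, against 6 to 67 in the knockout (adjusted p 0.456). None of 11 squamous differentiation genes was called in the limma fit, nor in the random block, the fit with all 22 libraries or voom. Of these 11, 9 had a negative log2 fold change.

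4 further falls were named after their values were seen, because they had among the smallest adjusted p-values or the highest levels. Slc7a1, the main carrier of arginine and other cationic amino acids, stood at 25551 to 28605 in control and at 5939, 4216, 5152 and 3538 in the knockout (log2 fold change -2.55, standard error 0.15, adjusted p 5.25e-05). Zfp518b, a zinc finger protein, stood at 624 to 945 against 25 to 57 (log2 fold change -4.19, adjusted p 8.42e-05). Arhgap32, a GTPase-activating protein, stood at 308 to 560 against 28 to 44 (log2 fold change -3.65, adjusted p 6.86e-05). Bend4 stood at 588 to 1210 against 81 to 180 (log2 fold change -2.83, adjusted p 0.000918). In all 4 genes the control libraries lay above the knockout libraries without overlap. The other 3 knockouts held 18130 to 33863 of Slc7a1, 591 to 1558 of Zfp518b, 149 to 737 of Arhgap32 and 775 to 1632 of Bend4, all above the Creb3l1 line.

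The rises were smaller. Atp2b4, a plasma membrane calcium pump, stood at 8, 36, 12 and 88 in control and at 276, 205, 511 and 291 in the knockout, 8.91-fold higher (log2 fold change 3.61, standard error 0.63, adjusted p 0.0479), and all 12 libraries of the other knockouts (9 to 113) were below it. Clec5a, a lectin-type receptor of myeloid cells, stood at 3 to 17 against 49 to 78, 7.31-fold higher (adjusted p 0.017). None of 5 macrophage markers was called. Csf1r stood at 126 to 136 in control and at 109 to 227 in the knockout, Cd68 at 41 to 76 against 47 to 67, and Ptprc at 5 to 9 against 0, while Adgre1 and Lyz2 were at 0 in all 4 knockout libraries. Srgap1, a GTPase-activating protein of Slit and Robo signalling, stood at 32 to 85 against 163 to 375, 4.67-fold higher (adjusted p 0.035). Tenm4, a teneurin of the cell surface, stood at 288 to 753 against 1617 to 2873, 3.54-fold higher (adjusted p 0.025).

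The lines did not overlap in these 4 genes, but the rule for named genes required this. None of the 4 was called in the random block, where the adjusted p was 0.0575 for Atp2b4, Clec5a and Tenm4 and 0.0709 for Srgap1. Among the other large rises, Shank2, a scaffold protein known from synapses, stood at 137 to 299 against 528 to 881, 3.12-fold higher (adjusted p 0.0199, random block 0.0384), and the other knockouts held 145 to 472. Apobec1 (3.39-fold), Efcc1 (3.37-fold), Sorcs2 (3.06-fold), Flt1 (2.52-fold) and Apc2 (2.30-fold) rose as well and were lost in the random block. Flt1, a VEGF receptor, stood at 134 to 201 against 333 to 574. Of 4 endothelial markers none was called, and Tie1 was too low to be tested. Pecam1 stood at 76 to 146 in control and at 79 to 139 in the knockout, Cdh5 at 3 to 17 against 3 to 16, Kdr at 0 to 49 against 0 to 8, and Tie1 at 0 in all 8 libraries. Ncam1, a neural cell adhesion molecule, rose 1.85-fold (adjusted p 0.0407, random block 0.0915), and the antisense gene Gm11149 that overlaps it rose too (log2 fold changes 0.92 and 0.92), so their reads may be shared. Wnt7a, a Wnt ligand, rose 1.87-fold (adjusted p 0.035, random block 0.134). It was the 1 called of 20 Wnt pathway genes, where 0.79% of all genes tested were called. Ncam1 and Wnt7a were each called in 1 of the 8 fits with a library left out.

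**Figure D3:**
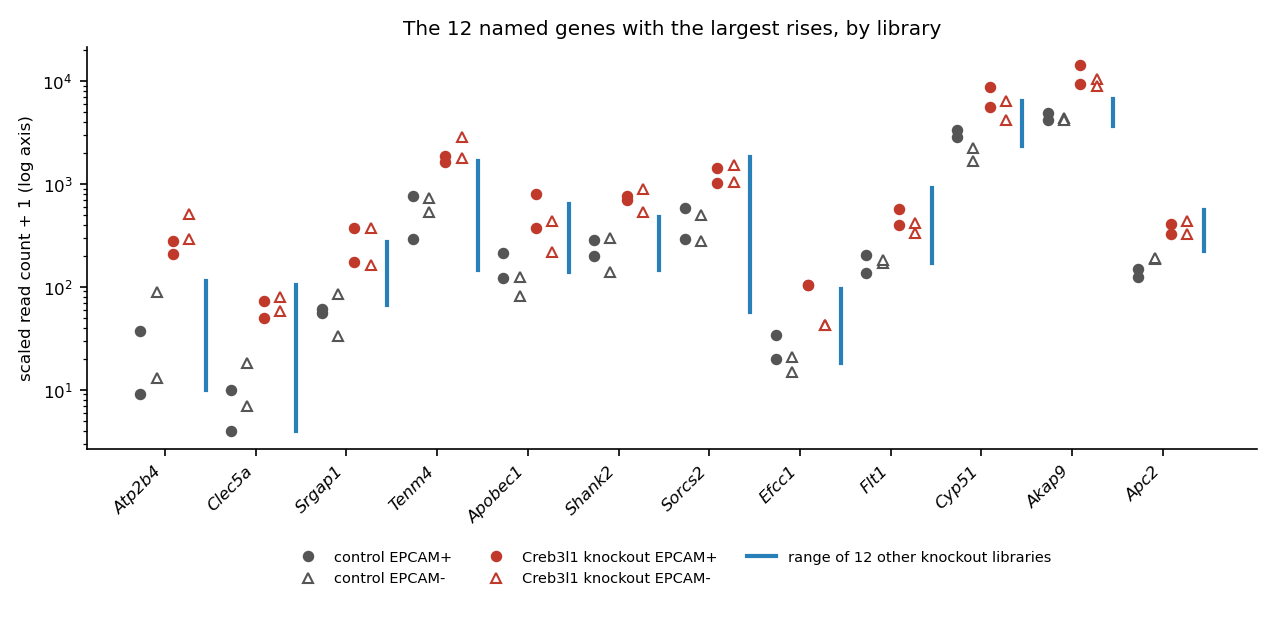
Scaled counts plus 1 (y axis, log scale) of the 12 largest named rises in each library, with control in grey, the Creb3l1 knockout in red, EPCAM+ as circles and EPCAM- as triangles; blue bars span the 12 libraries of the other 3 knockouts. Red points lie above grey points in each gene because the genes were chosen that way. The red points lie wholly above the blue bar for Atp2b4, Shank2 and Akap9.

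The 2 largest rises by log2 fold change fell outside the rule for named genes and were named after their values were seen. Gm22068, a small nuclear RNA gene, stood at 3 to 17 in control and 136 to 220 in the knockout (log2 fold change 4.10), and Gm21742, an unprocessed pseudogene annotated on chromosome Y, at 3 to 7 against 67 to 141 (log2 fold change 4.08). The predicted antisense genes Gm15726 and Gm15247, side by side at the end of chromosome X, rose with log2 fold changes of 1.81 and 1.99. The small nuclear RNA and the pseudogene have near-identical copies in the genome, so their counts are uncertain.

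Akap9 and Cyp51 rose together with their chromosomal neighbours. Akap9, a scaffold of protein kinase A at the centrosome and Golgi (chromosome 5, 3928054 to 4081310, plus strand), stood at 4143, 4832, 4326 and 4150 in control and at 14154, 9302, 10340 and 8836 in the knockout, 2.44-fold higher (log2 fold change 1.27, standard error 0.14, adjusted p 0.00224). Cyp51, a demethylase of cholesterol synthesis, overlaps the end of Akap9 on the other strand (4081145 to 4104746). It stood at 1673 to 3292 against 4189 to 8798, 2.49-fold higher (adjusted p 0.0125). Whether the counting used strand is not stated, so reads in the shared bases cannot be assigned to either gene.

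In the first 5 Mb of chromosome 5, 7 of 29 genes tested rose and none fell, where 0.225% of all genes tested rose. Among them, named after their values were seen, were Fam133b, Rbm48, Gatad1, Akap9, Gm43031 and Cyp51. Of the 15 genes there whose scaled counts averaged 100 or more over the 8 libraries, 13 had a positive log2 fold change, against 47.9% of all genes tested. In 9 of the 15 all 4 knockout libraries lay above all 4 control libraries, as they did in 524 of all 18222 genes tested. The window's median log2 fold change was 0.67, the highest of 361 windows of this size with at least 10 such genes, whose 5th to 95th percentiles ran from -0.16 to 0.20. It was 0.67 in EPCAM+ and 0.67 in EPCAM- cells. Against the other 3 knockouts it was 0.46, also the highest, though Pitx1 knockout EPCAM+ replicate 1 (0.64 above the control mean) stood within the range of the Creb3l1 libraries (0.50 to 0.78). The window was picked for its rank, and gene copy number was not measured here.

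**Figure D4:**
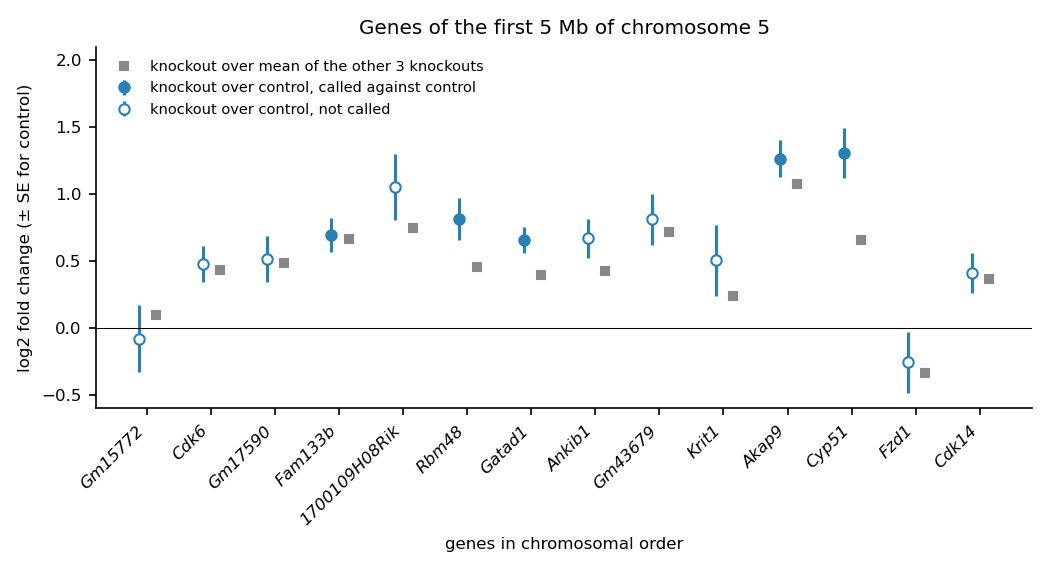
Log2 fold change (y axis) of 14 of the 15 genes (mean scaled count 100 or more) from the first 5 Mb of chromosome 5, in chromosomal order (x axis): circles with standard error bars give the Creb3l1 knockout over control, filled where called, and squares give the knockout over the mean of the other 3 knockouts. Of the 14 genes shown 12 lie above 0 against control, and the 2 below are Gm15772 and Fzd1.

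Cholesterol and fatty acid synthesis genes as a group stayed close to control. Cyp51 was the 1 called of 29 genes tested, where 0.79% of all genes tested were called. Of the 29, 25 had a positive log2 fold change, and the list's median was 0.15. Against the other 3 knockouts the median was -0.04. Other runs of called genes were short. Within 1 Mb of another called gene lay 42 of the 144, and 38 of these had all such neighbours moving in their own direction. The 42 include the chromosome 5 genes above and overlapping annotations that may share reads, such as Gm44089 within Add2. The same counts were not made over all genes tested, so nothing is read from their size. Chromosome 19 had 7 rises and 1 fall among 552 genes tested (1.45% called, against 0.79% of all genes tested). The called share was higher on chromosomes X (2.012%), 5 (1.655%) and 6 (1.461%). Chromosome 19 had a median log2 fold change of 0.21, the highest of the chromosomes. Its first 5 Mb, with Chka and Kdm2a rising, had a median of 0.46, but the 4 Pitx1 knockout libraries stood as high there (0.47 to 0.56 above the control mean, against 0.40 to 0.51 in the Creb3l1 line). Chromosome 2 had 13 falls and no rise among 1416 (0.918%), where 0.565% of all genes tested fell. These falls include Gm37747 and Gm38377, which lie within Cers6.

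None of the listed genes of the pathway in which Creb3l1 is known to act was called, where 0.79% of all genes tested were called. At that share, lists this short would hold few calls or none. The absence of calls therefore cannot show that the pathway was unchanged, here and for the unfolded protein response and collagen lists below. None of the 9 tested genes of the Creb3 and ATF6 family with its proteases was called, and 5 had a positive log2 fold change. Its relative Creb3l2 averaged 1587 in control and 2128 in the knockout (log2 fold change 0.51, adjusted p 0.652), and the protease gene Mbtps1 stood at 2357 to 3236 against 3006 to 3371. Of 40 genes of COPII and COPI transport, the vesicle coats between endoplasmic reticulum and Golgi, none was called, with a median of -0.06 (16 positive and 24 negative). The smallest adjusted p there was that of the syntaxin Stx5a (log2 fold change 0.57, 0.094). Copa, a subunit of the COPI coat, stood at 5367 to 7503 against 6438 to 7234.

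The unfolded protein response list gave no call among 28 genes, with 19 positive, 9 negative and a median of 0.12. Hsp90b1, a chaperone of the endoplasmic reticulum, stood at 18830 to 22667 in control and at 19733 to 23895 in the knockout (log2 fold change 0.11, standard error 0.10, adjusted p 0.679). Pdia3, a protein disulfide isomerase, stood at 18338 to 23667 against 20877 to 23210. The 2 lines overlapped in both genes.

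Collagen genes were not called either, neither the 19 chains tested (median -0.06) nor 19 genes of collagen modification and crosslinking (median -0.07). Among the chains Col4a2, of the basement membrane, had the smallest adjusted p (log2 fold change -0.73, 0.062). Its partner Col4a1 stood at 5602 and 5241 in control EPCAM+ and at 5381 and 5664 in control EPCAM- cells, against 4044, 4918, 3350 and 3316 in the knockout (log2 fold change -0.50, standard error 0.12, adjusted p 0.11). All 4 knockout libraries were below all 4 control libraries, a difference that did not pass the test. Serpinh1, the collagen chaperone HSP47, stood at 4078 to 6682 against 4189 to 6539. Over these 5 lists the random block, the replicate block and voom also called 0 genes, and the fit with all 22 libraries called 1 transport gene and 1 collagen chain. These values do not show that the listed genes were unchanged. They also set no upper limit on an effect at the protein level, which was not measured.

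**Figure D5:**
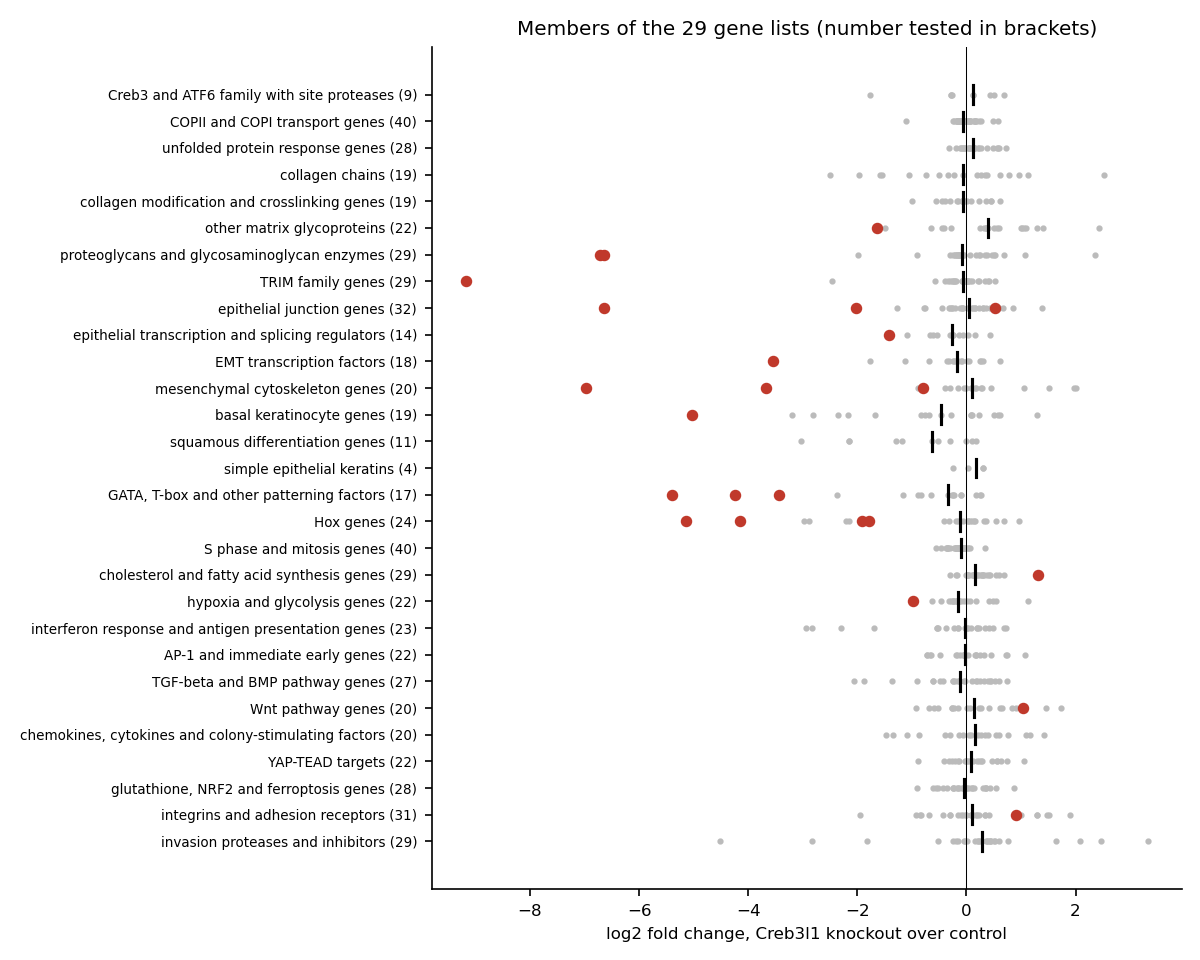
Log2 fold change (x axis) of each tested member of the 29 gene lists (rows, with the number tested in brackets) in the Creb3l1 knockout over control: red points are called members, grey points are not called, and black ticks are list medians. The 5 lists of secretory transport, protein folding and collagen at the top hold no red point, as lists this short may at the share called among all genes tested.

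In all, 29 lists with 750 distinct genes were read in this way. In 15 lists with 341 tested members no gene was called, and the other 14 lists held 24 called genes, where 0.79% of all genes tested were called. The lists were chosen with earlier results known, so nothing is read from that difference. Of the 24, 12 passed in the random block. Among matrix genes Fbln1, a fibulin, fell 3.30-fold (329 to 833 against 131 to 176, adjusted p 0.0037, random block 0.0162). It was the 1 called of 22 matrix glycoproteins, whose median of 0.39 was of the opposite sign. Egln3, an oxygen-sensing hydroxylase, fell 2.00-fold (adjusted p 0.0441, random block 0.224) as the 1 called of 22 hypoxia and glycolysis genes. None of 40 S phase and mitosis genes was called, although 36 had a negative log2 fold change (median -0.11). Mki67 stood at 11834 to 14716 in control and spread more in the knockout, at 10512 and 15806 in EPCAM+ and at 8790 and 17451 in EPCAM- cells.

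Lists of interferon response, AP-1, TGF-beta and BMP signalling, cytokines, YAP-TEAD targets, glutathione and ferroptosis, and invasion proteases held no called gene. Ctgf, a YAP-TEAD target, stood at 3070 and 2488 in the control replicate 1 libraries and at 7190 and 6446 in the replicate 2 libraries, against 6198 to 12797 in the knockout (log2 fold change 1.05, adjusted p 0.327). H2-K1, an antigen-presenting molecule, stood at 3309 to 3649 against 3289 to 3718 (log2 fold change 0.02, standard error 0.09).

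Within each fraction alone, 2 libraries against 2, fewer genes passed. In EPCAM+ cells 13 genes were called (0.0713%), all falls (0 rises) and all among the 144: Trim44, Cers6, Epdr1, Sdc2, Cdh11, Krt17, Stk39, Hoxb9, Zfp518b, Arhgap32, Bend4, Slc7a1 and Cntln. This count was 7 with the replicate block and 1 to 9 with a library left out (1 and 4 without knockout EPCAM+ replicates 2 and 1, 3 and 7 without control EPCAM+ replicates 2 and 1, 8 without either control EPCAM- library). In EPCAM- cells 25 genes were called (0.137%), 4 rises (0.022%) and 21 falls (0.115%). The count was 2 without control EPCAM- replicate 1, 6 and 9 without knockout EPCAM- replicates 2 and 1, and 16 without knockout EPCAM+ replicate 2. Without control EPCAM- replicate 2 it was 17, and the balance turned to 9 rises and 8 falls. Trim44 had a log2 fold change of -8.61 in EPCAM+ and -9.74 in EPCAM- cells, and Cers6 -7.14 and -5.59.

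3 genes were called in EPCAM- cells but not over both fractions. Lama3, a laminin chain of the epithelial basement membrane, stood at 727 and 704 in control and at 2619 and 3642 in knockout EPCAM- cells (log2 fold change 2.11, adjusted p 0.0234). The EPCAM+ libraries held more of it and stood at 5531 and 9856 against 12575 and 11615 (log2 fold change 0.71, adjusted p 0.922). Hhip, a hedgehog-binding inhibitor of that pathway, fell in EPCAM- cells from 206 and 129 to 16 and 23 (log2 fold change -3.02, adjusted p 0.0426), while in EPCAM+ cells it stood at 76 and 57 against 28 and 39. The third was the predicted gene Gm29200. The difference between the fractions was tested itself by an interaction term, and limma called 0 of 18222 genes, with 129 at an unadjusted p below 0.05, which does not show that the fractions responded alike. It called 0 with the replicate block and with voom, and 1 with plain variance moderation.

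Set against the mean of the Pitx1, Klf5 and Nfatc1 knockouts, without any control library, the Creb3l1 line had 781 of 19045 genes called (4.1%), 208 rises (1.09%) and 573 falls (3.01%). The count was 2058 with the replicate block, 176 with a random block, 34 with fractions averaged and 380 to 889 with a library left out (380, 396 and 405 without knockout EPCAM+ replicate 1, EPCAM- replicate 1 and EPCAM- replicate 2). This comparison shares the Creb3l1 libraries with the one against control, so the 2 sets of values are given side by side and not as a replication. Trim44 had log2 fold changes of -9.18 against control and -8.57 against the other knockouts (adjusted p 2.76e-08), Sdc2 of -6.72 and -5.11 (1.39e-05), and Cdh2 of -3.67 and -3.85 (2.75e-07). Krt17 had -5.04 and -2.98 (adjusted p 0.000334), Akap9 1.27 and 1.08 (0.00021), and Wnt7a 1.04 and 2.17 (0.000427). Apc2, Flt1 and Apobec1 were not called against the other knockouts, at log2 fold changes of 0.14, 0.25 and 0.47.

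Markers of other cell types that a culture could hold gave no call. Those that did not reach a value of 10 in at least 2 libraries, among them Cd3e, Cd3g, Lum and Dpt, were not tested and could not be called. Of 5 fibroblast markers, led by Col1a1, the summed scaled counts were 173 to 751 in control and 256 to 1983 in the knockout. Those of 4 T and NK cell markers were 0 to 13 and 0 to 10, with Cd3e and Cd3g at 0 in all 8 libraries. For 5 macrophage markers they were 186 to 214 and 176 to 287, for 4 endothelial markers 96 to 204 and 85 to 161, for 3 pericyte markers 3 to 70 and 16 to 279, for 4 melanocyte markers 6 to 42 and 17 to 39, and for 3 adipocyte markers 3 to 15 and 0 to 15. The 3 muscle markers were the set whose sums did not overlap, at 0 to 74 in control and 88 to 299 in the knockout, led by Acta1 (0 to 69 against 69 to 288, adjusted p 0.314). The part of these cells in the results was not tested. Of 7 tumour epithelial markers, with sums of 15720 to 56805 and 23705 to 46608, none was called, and Trp63 was too low to be tested. Of 3 mesenchymal-like markers Cdh2 and Vim fell.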

How the data were processed

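RNA was measured in sorted tumour cells by paired-end RNA-seq (RNeasy micro and Ovation Solo kits, NovaSeq, per the labels' protocols). The submitters' processing notes name FastQC, Trimmomatic, STAR, Picard and HTSeq with the GRCm38/mm10 genome, without versions. The deposited values, 49671 genes by 22 libraries, were treated as a score: whole numbers that the authors scaled to 1 total and rounded up, as the value steps show. One allele of the genotype and some genes are not reported here.

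The test was limma 3.58.1 (R 4.3.3, with version 1.17.8 of data.table) on log2(value + 1) over the 8 libraries, with line and fraction as terms and variances moderated with a trend and a robust prior. Genes with a value of at least 10 (3 to 4 reads) in at least 2 libraries were tested, with the Benjamini-Hochberg adjustment over all of them and a threshold of 0.05. Per-fraction effects and their difference used group means of the same 8 libraries, and the contrast with the other knockouts used the 16 knockout libraries of day 8. Alternatives were the replicate block, a random block of line and number, fractions averaged, all 22 libraries in the fit, a pseudocount of 5, no filter or a stricter one (30 in 4 libraries), median-of-ratios scaling, plain moderation, voom on recovered reads, and each library left out. Python 3.11.15 with numpy 2.4.6, pandas 2.3.3 and matplotlib 3.10.9 did the rest.

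Pairing by number follows the labels' batch tag. Replicate differences correlated at 0.677 and 0.566 between the fractions of a line, but at -0.252 to 0.003 between lines (12307 genes). Simulated data for the comparison over both fractions (18205 genes tested) gave back 41 and 49 of 50 genes changed 2-fold down and up. Of those changed 4-fold, 49 and 50 of 50 were called, with 5 false calls among 18005 unchanged genes. Each library was drawn independently with 1 assumed spread, without the correlation between the fractions of a line. These counts therefore check the fit and do not measure the errors among the calls in the real data.

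Genes named were Creb3l1, Epcam, Trim44 and Sdc2, the 12 largest called rises and falls (mean of 50 or more in the higher line, all libraries apart) without predicted genes and pseudogenes, up to 4 called members of each list (2 of the highest mean where none was called), 5 neighbours a side of Creb3l1 and Trim44, and up to 5 genes a direction called in 1 fraction alone. The members and the 29 lists were chosen with earlier results of these data known. Positions are GENCODE M21 (GRCm38), matched for 99.3% of genes. Folds are ratios of means, and genes with 1 to 3 knockout reads have no ratio.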

Additional observations from a re-analysis of the deposited data

How the results depend on the processing

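Calls over both fractions (144) became 217 with the replicate block, 63 with plain variance moderation (7 rises, 56 falls), 16 with fractions averaged (1 and 15) and 46 with the random block (8 and 38). They ranged from 64 to 96 with a library left out: 93 and 96 without control EPCAM+ replicates 1 and 2, 68 and 92 without control EPCAM- replicates 1 and 2, 71 and 79 without knockout EPCAM+ replicates 1 and 2, and 64 and 79 without knockout EPCAM- replicates 1 and 2. The remaining settings gave 104 to 199. In EPCAM+ cells (13) the count was 7 with the replicate block, 38 with all 22 libraries, 4 with voom and 1 to 9 with a library left out. In EPCAM- cells (25) it was 51 with all 22 libraries, 15 with plain moderation, 8 with voom and 2 to 27 with a library left out. The difference between fractions (0) gave 1 with plain moderation and 0 with each library left out. Against the other knockouts (781) the count was 2058 with the replicate block, 453 with all 22 libraries, 34 with fractions averaged, 176 with the random block and 380 to 889 with a library left out, the lowest 380, 396 and 405 without knockout EPCAM+ replicate 1, EPCAM- replicate 1 and EPCAM- replicate 2; voom turned its split to 328 rises and 400 falls. Within a fraction, leaving out a library leaves 1 against 2, and the lone library is assumed to vary like the other groups. The cause of these shifts was not tested. Of 41 called named genes none changed sign under these settings, and of the 54 not called 17 did under at least 1. Of the 41, 40 were called with the replicate block, 40 with a pseudocount of 5, 40 with no filter, 37 with median-of-ratios scaling, 32 with all 22 libraries, 29 with voom, 28 with the stricter filter (which leaves some of them untested), 20 with the random block, 18 with plain moderation, 10 with fractions averaged and 20 to 30 with a library left out. Voom with median-of-ratios scaling was chosen after seeing the data, in place of voom with TMM scaling and of the planned count test, which were not run because the rounded values did not pass as whole reads. Genes at 0 in all 4 knockout libraries had no read there, and their bounds use a chosen floor of 3 reads per library.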
